A study of Mus musculus with 30 samples.

Results

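The genes described here are 10 markers of the endothelium, the cell layer that lines blood vessels, in the regenerating mouse digit tip. They were chosen by gene symbol as Pecam1, Cdh5, Kdr, Flt1, Tek, Tie1, Vwf, Emcn, Angpt2 and Plvap, and are 10 of the 20321 genes in the expression tables. All 10 passed the filter for low counts, which kept 13793 genes for testing. By the study's methods, the libraries come from 30 mice whose hindlimb digit 3 had lost at most 33% of the distal phalanx (P3). P3 is the bone of the digit tip, which regrows after such an amputation. Mice were collected at 0 h and, in the first day, at 3 h, 6 h, 12 h and 24 h. Later collections were at 3 d, 7 d, 14 d and 21 d, with 6 mice at 7 d and 3 at each other time. All groups were adult male C57Bl/6 mice, which the study's methods give as 9 to 10 weeks old, with no transgene or drug named, and the 0 h digits serve as the baseline. The methods do not state how the 0 h tissue was taken, and no separate group of uninjured digits was analysed here.

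Blood vessels are cut by the amputation and regrow with the tissue. Endothelial cells are held together at their borders by PECAM1 and VE-cadherin, the product of Cdh5. They sense the growth factor VEGF through the receptors KDR (VEGFR2) and FLT1 (VEGFR1), and the angiopoietins through TEK (TIE2) and its partner TIE1. The angiopoietin ANGPT2 is itself released by endothelial cells and can loosen the vessel wall. Vwf encodes the clotting protein von Willebrand factor, Emcn the surface sialomucin endomucin of capillaries and veins, and Plvap the protein of the diaphragms that span endothelial pores.

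A promoter window of 300 bases, placed around the RefSeq start, was found for 5 of the 10 genes on mouse build GRCm38.p6. Against the gene starts of the GENCODE annotation, from 239 to 250 of these bases lie before the start for Emcn, Kdr, Flt1 and Tek, whereas for Tie1 38 lie before it and 262 inside the gene. Those of the VEGF receptors and of the Tie receptors are shown because the receptors of each pair are compared with each other below. Transcription factors of the ETS family, which act in endothelial cells, bind around the core GGAA. Capitals mark GGAA on either strand (TTCC when it lies on the other strand), and each sequence runs 5′ to 3′ on the strand of its gene.
Flt1, chr5:147725962-147726261, minus strand: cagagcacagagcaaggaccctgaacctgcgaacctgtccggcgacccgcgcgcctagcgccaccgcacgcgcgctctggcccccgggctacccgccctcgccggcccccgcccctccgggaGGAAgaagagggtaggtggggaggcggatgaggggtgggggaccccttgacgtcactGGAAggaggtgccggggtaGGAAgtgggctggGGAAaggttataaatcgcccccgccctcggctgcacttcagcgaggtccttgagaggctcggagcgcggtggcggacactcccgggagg
Kdr, chr5:75978406-75978705, minus strand: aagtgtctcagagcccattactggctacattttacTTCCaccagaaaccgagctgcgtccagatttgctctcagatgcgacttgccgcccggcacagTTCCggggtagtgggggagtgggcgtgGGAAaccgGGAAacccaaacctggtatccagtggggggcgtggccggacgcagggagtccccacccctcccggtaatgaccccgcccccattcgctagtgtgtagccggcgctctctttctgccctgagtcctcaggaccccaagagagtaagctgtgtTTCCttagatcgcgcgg
Tie1, chr4:118489800-118490099, minus strand: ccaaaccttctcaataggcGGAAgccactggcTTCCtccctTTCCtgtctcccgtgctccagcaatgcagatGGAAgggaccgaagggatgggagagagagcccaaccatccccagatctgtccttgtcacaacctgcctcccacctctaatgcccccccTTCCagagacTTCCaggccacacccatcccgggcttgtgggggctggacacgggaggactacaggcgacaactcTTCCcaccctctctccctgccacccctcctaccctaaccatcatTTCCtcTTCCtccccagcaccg
Tek, chr4:94739039-94739338, plus strand: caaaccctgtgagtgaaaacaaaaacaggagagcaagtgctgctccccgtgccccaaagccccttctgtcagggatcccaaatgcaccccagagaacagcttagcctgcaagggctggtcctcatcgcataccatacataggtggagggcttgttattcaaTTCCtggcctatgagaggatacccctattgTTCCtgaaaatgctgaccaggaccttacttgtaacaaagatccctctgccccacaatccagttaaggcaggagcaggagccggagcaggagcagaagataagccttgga
The core occurred 9 times for Tie1, 5 times for Kdr, 4 times for Flt1 and 2 times for Tek, and 6 times in the promoter of Emcn, which is not printed. Of 32851 mouse promoters of this length, 1.59% held at least 9 copies, 15.7% at least 6, 28.6% at least 5, 46.3% at least 4 and 84.6% at least 2. The median promoter held 3 copies. The Tie1 window covers mostly annotated gene, so its count cannot be read beside the others as one of bases before the start. These are matches of letters in a fixed window, and binding was not measured.

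For each library the authors deposited expected counts per gene, which are reads assigned to genes by the program RSEM, and TPM, a measure of transcript abundance scaled for gene length and for the library. Total expected counts ran from 3167596 to 16277805 per library. The 10 genes had at least 12 counts in every library (Tek in the 3 h replicate 3) and at most 802. By the dates in their titles, 16 libraries form a set from July and August and 14 a set from November to January, with median totals of 5083496 and 9836296. All 3 h and 12 h libraries belong to the first set and all 21 d libraries to the second, so that within a set the 3 h and 12 h libraries have only 1 baseline library and those at 21 d only 2. At 7 d, 3 of the 6 libraries come from the left foot, and among them replicate 3 stood apart, with the fewest detected genes of all (12191) and the most extreme score on the first principal component. In whole digit tissue, fewer endothelial cells and less RNA per endothelial cell cannot be told apart.

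Averaged over the 30 libraries, the level per length was highest for Pecam1, at 40.7 TPM, followed by Plvap (35.1 TPM), Emcn (26.9 TPM) and Cdh5 (18.1 TPM). Kdr (10.3 TPM), Vwf (9.91 TPM), Tie1 (9.04 TPM), Flt1 (8.55 TPM), Tek (8.20 TPM) and Angpt2 (6.46 TPM) lay close together, and the range of each overlapped that of the next. All 10 were above 0 in every library. The sum of their TPM ran from 75.8 in the 6 h replicate 2 to 312 in the 7 d replicate 2. The lowest value of 4 genes (Plvap, Emcn, Cdh5 and Flt1) was found in the 6 h replicate 2 and that of another 4 (Pecam1, Kdr, Tie1 and Angpt2) in the 24 h replicate 3. Each of these libraries was the only one of its time point dated November to January. The highest value of 5 genes (Plvap, Cdh5, Kdr, Vwf and Tie1) was found in the 7 d replicate 2, which is dated July.

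**Figure D1:**
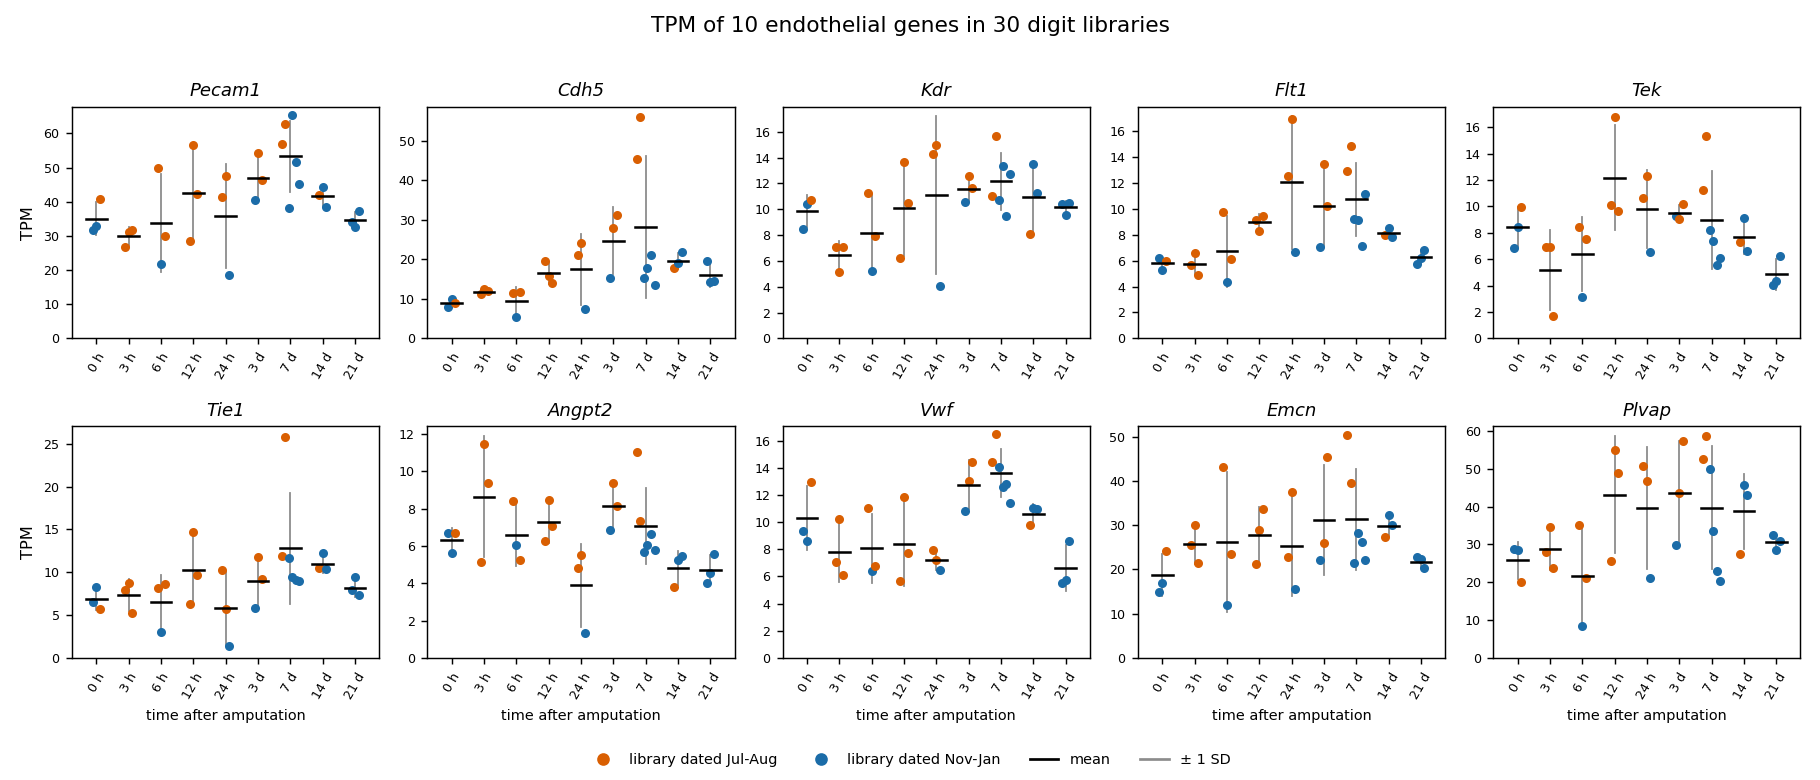
TPM (vertical axis, from 0) of each of the 10 genes in every library by time after amputation, with points colored by date set, horizontal bars at the mean and grey lines for ± 1 SD. The Cdh5 libraries at 0 h lie between 8.03 and 9.94 TPM, whereas those at 7 d lie between 13.4 and 55.9 TPM.

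To determine which of these genes changed after amputation, all 30 libraries were compared in a single fit. Cdh5, Flt1 and Vwf changed over the 9 time points, so that 3 of 10 genes passed an adjusted p of 0.05 in edgeR's quasi-likelihood F-test with Benjamini-Hochberg adjustment, against 9.01% of all tested genes. Cdh5 rose most, to 2.91 times its 0 h level at 7 d. Flt1 rose at 24 h (2.10-fold) and was still higher at 7 d (1.79-fold). Vwf was highest at 3 d and 7 d and lowest at 21 d. The other members did not pass, with adjusted p-values of 0.129 (Pecam1), 0.138 (Angpt2), 0.192 (Tek), 0.269 (Tie1), 0.343 (Kdr), 0.389 (Plvap) and 0.701 (Emcn). With limma on log2(TPM + 1), Vwf passed, whereas the adjusted p was 0.0923 for Cdh5 and 0.114 for Flt1. By the labels, the replicates are separate mice, and the p-values weigh each change against the spread between them.

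Against 0 h, 1 member passed at 24 h (Flt1, higher), where 0.493% of all tested genes passed, and 2 passed at 7 d (Cdh5 and Flt1, both higher), where 2.34% passed. No member passed edgeR's quasi-likelihood test at 3 h, 6 h or 12 h, where 0.254%, 0.189% and 0.167% of tested genes passed. The same held at 3 d (0.551% of genes), 14 d (1.61%) and 21 d (1.94%), although with date set as a covariate Cdh5 passed at 14 d and 21 d. No member passed between 3 d and 7 d (0.0145% of genes), between 7 d and 14 d (0.435%) or between 14 d and 21 d (0%). The median log2 fold change of the 10 genes against 0 h was 0.15 at 3 h, -0.13 at 6 h, 0.39 at 12 h and 0.22 at 24 h. It was 0.29 at 3 d, 0.58 at 7 d, 0.32 at 14 d and 0.18 at 21 d, while the median over all tested genes stayed between -0.01 and 0.01.

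**Figure D2:**
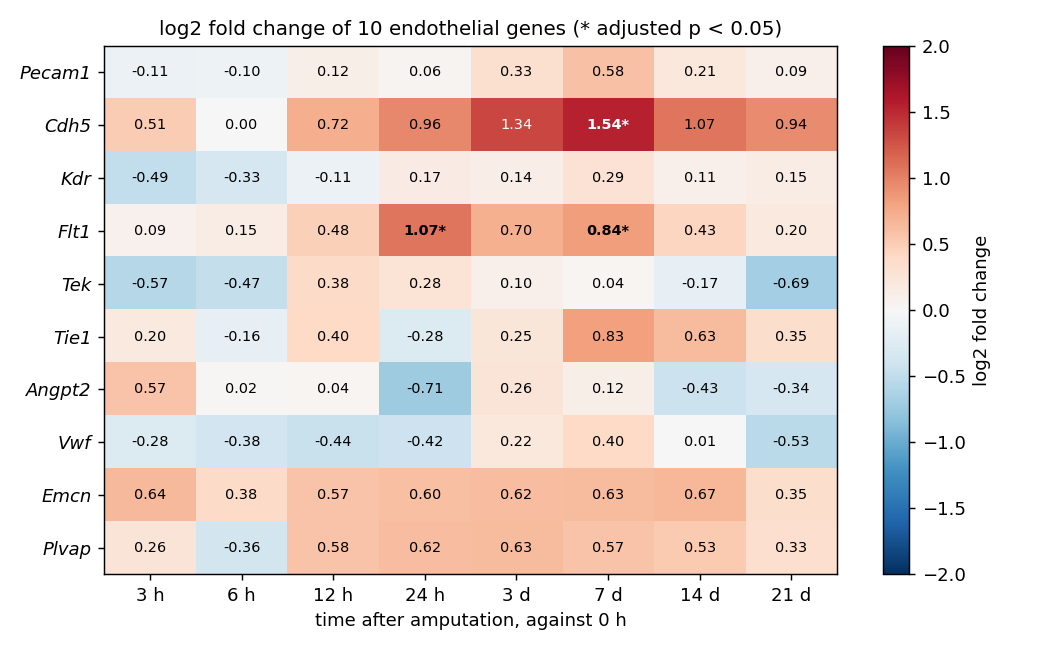
Fitted log2 fold change against 0 h (color and printed value) of the 10 genes (rows) at the 8 later times (columns), with an asterisk where the adjusted p is under 0.05. Asterisks stand at Flt1 for 24 h (1.1) and 7 d (0.84) and at Cdh5 for 7 d (1.54).

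Cdh5 (chr8:104101625-104144511, plus strand, GRCm38) encodes the cadherin of endothelial junctions, found in few other cells. Its TPM was 8.03, 9.94 and 9.02 at 0 h, 11.1, 12.5 and 11.9 at 3 h, and 11.4, 5.37 and 11.7 at 6 h. It was 19.5, 15.7 and 14.1 at 12 h, 21.0, 24.2 and 7.31 at 24 h, and 15.2, 27.8 and 31.2 at 3 d. At 7 d its lowest, median and highest TPM were 13.4, 19.4 and 55.9, after which it was 17.7, 19.1 and 21.7 at 14 d and 19.5, 14.3 and 14.4 at 21 d. Every library at 3 h and 12 h, and every one from 3 d on, was above every 0 h library, whereas 1 library each at 6 h and 24 h was below them. In the order of the means, from 7 d (28.1 TPM) down through 3 d, 14 d, 24 h, 12 h, 21 d, 3 h and 6 h to 0 h (9.0 TPM), each time overlapped the next except 21 d and 3 h.

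The log2 fold change of Cdh5 at 7 d was 1.54 (SE 0.33, adjusted p = 0.00721). At 3 d it was 1.34 (SE 0.36, adjusted p = 0.104), at 14 d 1.1 (adjusted p = 0.186) and at 21 d 0.94 (adjusted p = 0.273). With date set as a covariate it passed at 7 d (1.39, adjusted p = 0.000467), 14 d (1.1, adjusted p = 0.0167) and 21 d (1.14, adjusted p = 0.00904), and was -0.04 at 3 h and 0.17 at 12 h, times that hold the first date set alone, against 0.51 and 0.72 without the covariate. At 7 d, the 2 libraries of the first date set held 45.3 and 55.9 TPM and the 4 of the second 13.4 to 21.1 TPM, with no overlap. The same 2 libraries also stood above the other 4 in many, though not all, markers of leukocytes and bone cells. Among these were Cd68 (136 and 113 against 4.08 to 17.7 TPM), the macrophage receptor gene Csf1r (124 and 116 against 18.4 to 32 TPM) and Acp5 of osteoclasts (1057 and 1090 against 154 to 272 TPM). S100a9 (347 and 196 against 330 to 530 TPM) and Ibsp (992 and 737 against 959 to 1344 TPM) overlapped, as did Bglap and Sp7. The part of these cells in the split was not tested. The ratio of means to 0 h was 5.61 within the first set (2 libraries against 1) and 1.88 within the second (4 against 2). With the November to January libraries alone the log2 fold change at 7 d was 0.98 (adjusted p = 0.0536), without the 0 h replicate 1 it was 1.50 (adjusted p = 0.0819), and without the 0 h replicate 3 it was 1.54 (adjusted p = 0.0533).

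Pecam1 (chr11:106654217-106750628, minus strand), whose product also sits on platelets and leukocytes, had more transcripts per length than Cdh5 at every time and moved less. It ran from 31.7 to 40.8 TPM at 0 h, from 26.6 to 31.8 TPM at 3 h, and from 38.2 to 65.4 TPM at 7 d, its highest time. Its log2 fold change at 7 d was 0.58 (SE 0.20, adjusted p = 0.149). The ratio of Cdh5 to Pecam1 TPM within a library was 0.221 to 0.303 at 0 h. It was 0.374 to 0.417 at 3 h, 0.393 to 0.508 at 24 h, 0.374 to 0.675 at 3 d, 0.421 to 0.566 at 14 d and 0.388 to 0.569 at 21 d, all above the 0 h range. At 6 h (0.229 to 0.391), 12 h (0.277 to 0.683) and 7 d (0.271 to 0.892) the range overlapped that of 0 h. These ratios are descriptions and were not tested.

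The VEGF receptors were compared with each other. Flt1 (chr5:147561604-147726011, minus strand) encodes the receptor that binds VEGF tightly, also exists as a soluble form, and is made by some monocytes and macrophages too. It had a TPM of 6.21, 5.27 and 5.98 at 0 h, 5.67, 6.61 and 4.92 at 3 h, and 9.76, 4.38 and 6.11 at 6 h. It was 9.15, 8.32 and 9.48 at 12 h, 12.6, 16.9 and 6.69 at 24 h, and 7.08, 10.2 and 13.5 at 3 d. At 7 d its lowest, median and highest TPM were 7.14, 10.2 and 14.9, followed by 8.02, 8.55 and 7.82 at 14 d and 5.76, 6.20 and 6.84 at 21 d. All libraries at 12 h, 24 h, 3 d, 7 d and 14 d were above all 0 h libraries. Those at 21 d overlapped them in TPM, although on the TMM-normalized count scale used for testing they were all above them. In the order of the means, from 24 h (12.1 TPM) to 3 h (5.73 TPM), each time overlapped the next.

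The log2 fold change of Flt1 was 1.1 at 24 h (SE 0.24, adjusted p = 0.0296) and 0.84 at 7 d (SE 0.21, adjusted p = 0.0285). At 3 d it was 0.70 (SE 0.24, adjusted p = 0.360). At 24 h, the 2 libraries of the first date set (12.6 and 16.9 TPM) stood 2.47-fold above the 0 h library of that set, and the single library of the second stood 1.17-fold above its 2. At 7 d these ratios were 2.32 and 1.60. Without any of the 0 h libraries (replicates 1, 2 and 3) the adjusted p was 0.105, 0.232 and 0.137 at 24 h and 0.103, 0.139 and 0.128 at 7 d. Without the 24 h replicate 1 or 2 it was 0.0676 or 0.214 at 24 h, and without the left-foot libraries it was 0.0623 at 7 d.

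Kdr (chr5:75932827-75978458, minus strand), the main signaling receptor for VEGF in endothelium, ran from 8.44 to 10.7 TPM at 0 h, from 5.14 to 7.10 TPM at 3 h, from 4.05 to 15.0 TPM at 24 h and from 9.44 to 15.7 TPM at 7 d. Every 3 h library was below every 0 h library, with a log2 fold change of -0.49 (SE 0.29, adjusted p = 0.560). At the later times from 24 h on, its log2 fold change lay between 0.11 and 0.29, and none passed. The ratio of Flt1 to Kdr TPM was 0.508 to 0.736 at 0 h and 0.555 to 0.651 at 21 d. It lay wholly above the 0 h range at 6 h (0.769 to 0.868) and at 24 h (0.880 to 1.65). The highest ratio at 24 h came from replicate 3, where Kdr had its lowest value of all 30 libraries (4.05 TPM).

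Tek (chr4:94739289-94874976, plus strand) and Tie1 (chr4:118471191-118490061, minus strand), the angiopoietin receptor and its partner, did not pass at any time with all libraries. Within the November to January libraries alone, Tie1 passed over the time points (adjusted p = 0.0129), with 1 library at 24 h at 1.42 TPM. Tek ran from 6.84 to 9.96 TPM at 0 h and from 9.66 to 16.8 TPM at 12 h, its highest time, and its 3 libraries at 21 d (4.05, 4.31 and 6.21 TPM) were all below 0 h (log2 fold change -0.69, SE 0.34, adjusted p = 0.570). Tie1 ran from 5.71 to 8.28 TPM at 0 h and from 8.98 to 25.8 TPM at 7 d, where every library was above 0 h (log2 fold change 0.83, SE 0.36, adjusted p = 0.291). The ratio of Tie1 to Tek TPM was 0.573 to 0.985 at 0 h, 1.06 to 1.68 at 7 d, 1.33 to 1.56 at 14 d and 1.17 to 2.19 at 21 d. The last 3 ranges did not overlap that of 0 h, and the ratio was not tested. The 3 h range, 1.15 to 3.03, also lay above 0 h, but its highest value came from the library with only 12 Tek counts.

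**Figure D3:**
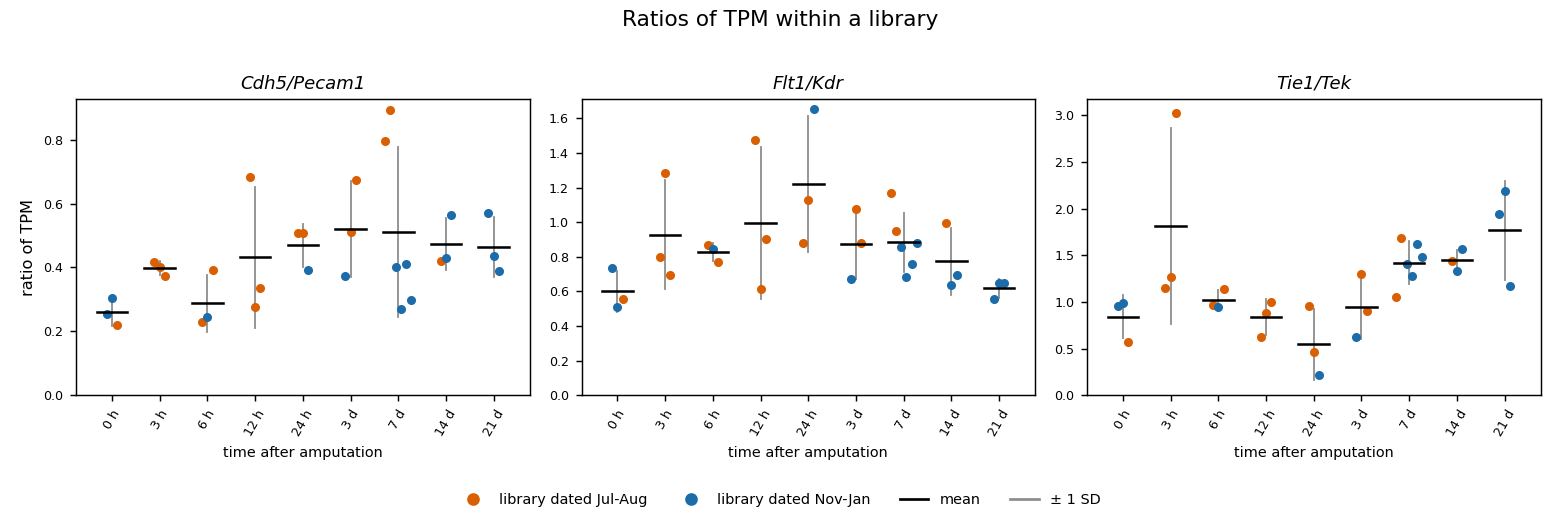
Ratio of TPM within each library (vertical axis, from 0) for Cdh5 to Pecam1, Flt1 to Kdr and Tie1 to Tek by time after amputation, with points colored by date set, bars at the mean and grey lines for ± 1 SD. Flt1 to Kdr is highest at 24 h (0.880 to 1.65) and back at 0.555 to 0.651 at 21 d, while Tie1 to Tek is 1.17 to 2.19 at 21 d.

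Angpt2 (chr8:18690263-18741562, minus strand), the ligand, ran from 5.65 to 6.70 TPM at 0 h and from 5.12 to 11.5 TPM at 3 h. It was lowest at 24 h, with 4.82, 5.50 and 1.33 TPM, all below 0 h, and the log2 fold change was -0.71 (SE 0.33, adjusted p = 0.504). Every 3 d library (6.86 to 9.36 TPM) was above 0 h, although not after TMM normalization. At 7 d it ran from 5.68 to 11.0 TPM and overlapped 0 h. Every library at 14 d (3.80 to 5.44 TPM) and 21 d (4.02 to 5.58 TPM) was again below 0 h, at 21 d in TPM but not after TMM normalization.

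Vwf (chr6:125546774-125686679, plus strand), the clotting factor that endothelial cells store and megakaryocytes also make, had a TPM of 9.37, 8.59 and 13.0 at 0 h. It ran from 6.09 to 10.3 TPM at 3 h, from 6.40 to 11.0 TPM at 6 h, from 5.68 to 11.8 TPM at 12 h and from 6.45 to 7.95 TPM at 24 h. It was 10.9 to 14.4 TPM at 3 d, and 11.4, 13.4 and 16.5 TPM (lowest, median and highest) at 7 d, then 9.83 to 11.1 TPM at 14 d and 8.60, 5.49 and 5.77 TPM at 21 d. In TPM the 24 h libraries were all below the 0 h libraries, although not after TMM normalization, those at 7 d were all above those at 24 h and 14 d, and those at 21 d were all below those at 14 d. From the highest mean (13.6 TPM at 7 d) to the lowest (6.62 TPM at 21 d), each time overlapped the next in order.

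Vwf passed the F-test over all times (adjusted p = 0.00905), yet no single contrast with 0 h did. Its log2 fold change was -0.42 at 24 h (adjusted p = 0.610), 0.40 at 7 d (adjusted p = 0.400) and -0.53 at 21 d (adjusted p = 0.417). Within the July to August libraries alone the F-test gave an adjusted p of 0.208, and within the November to January libraries 0.0545.

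Emcn (chr3:137341067-137432185, plus strand) and Plvap (chr8:71497765-71511752, minus strand), surface proteins of capillary and venous endothelium, did not pass at any time. Emcn ran from 15.0 to 24.1 TPM at 0 h and from 21.3 to 50.3 TPM at 7 d, with log2 fold changes between 0.35 and 0.67 at all 8 later times. The gene has 2 transcripts in the authors' table and its effective length differed 1.49-fold between libraries, so that its TPM also carries the estimate of transcript use. Plvap ran from 20.1 to 28.7 TPM at 0 h, from 8.33 to 35.2 TPM at 6 h and from 20.4 to 58.6 TPM at 7 d, with a log2 fold change of 0.57 (SE 0.33) at 7 d. At 7 d the Plvap ratio to 0 h was 2.77 in the first date set and 1.1 in the second.

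Whether the groups overlapped was also counted for each gene. At 7 d, 3 members (Cdh5, Flt1 and Tie1) had every library above every 0 h library in TPM, against 3.99% of all tested genes, and none lay below (2.31%). At 24 h, 1 member (Flt1) did, against 4.81%, and 2 (Vwf and Angpt2) lay below, against 10.7%. At 3 d, 4 members (Cdh5, Flt1, Angpt2 and Plvap) lay above, against 10.3%, and none below (4.34%). At 14 d, 4 (Cdh5, Flt1, Tie1 and Emcn) lay above, against 14.5%, and 1 (Angpt2) below, against 9.08%. At 21 d, 1 (Cdh5) lay above, against 9.02%, and 2 (Tek and Angpt2) below, against 14.3%. At 12 h, 2 (Cdh5 and Flt1) lay above, against 15.5%, and none below (5.25%). At 3 h, 1 lay above (Cdh5, 4.55%) and 1 below (Kdr, 15.9%), and at 6 h none lay either way (7.14% above and 8.63% below). Between 3 d and 7 d no member separated (0.631% above and 1.28% below), and between 7 d and 14 d 2 (Vwf and Angpt2) had every 14 d library below, against 1.98%, and none above (2.66%). Between 14 d and 21 d, 6 members (Pecam1, Flt1, Tek, Tie1, Vwf and Emcn) had every 21 d library below every 14 d library, against 15.2% of all tested genes, and none above (2.66%). On the TMM-normalized count scale used for testing, this count was 4 (Flt1, Tie1, Vwf and Emcn) against 7% of genes. No gene of all 13793 passed the edgeR test between these times, while Vwf alone of the members had an unadjusted p under 0.05 (0.0260). Other sets also differed in part on the TMM-normalized scale. At 3 d, 3 members (Pecam1, Cdh5 and Flt1) lay above 0 h on it, against 8.16% of genes. At 7 d, 4 (Pecam1, Cdh5, Flt1 and Tie1) did, against 3.92%. At 21 d, 2 (Cdh5 and Flt1) did, against 12.5%, and 1 (Tek) lay below, against 10.2%. With Emcn added, 2 lay above at 3 h (Cdh5 and Emcn, 9.16%) and 3 at 12 h (Cdh5, Flt1 and Emcn, 9.82%).

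The change over time was also tested for dependence on the date set, with 21 libraries from the times that both sets cover. No member passed the edgeR quasi-likelihood test of the interaction, against 0.883% of tested genes. The unadjusted p was under 0.05 for Cdh5 (0.00622), Kdr (0.0107), Plvap (0.0371) and Tie1 (0.0409). Of the 12 combinations of time and date set, 5 held a single library. Without the left-foot libraries Plvap passed (adjusted p = 0.0436), in a fit where 6 of the 12 held a single library, the second date set at 7 d among them.

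The 10 genes moved together only in part. Over 30 libraries, which share depth and time, the Pearson correlation of depth-normalized log2 counts between pairs ran from -0.14 to 0.78 with a median of 0.39 over 45 pairs, 2 of them below 0. Pecam1 was most like the mean of the other 9 (r = 0.81), followed by Plvap (0.74) and Cdh5 (0.73), and Angpt2 least (0.21). After removal of the time point means, the correlation of Angpt2 was 0.51 and that of Vwf 0.34. Among genes outside the set, the 10 most like the mean of the members were Plxnd1 (r = 0.80), an endothelial semaphorin receptor, Arpc1b (0.80), Lrp1 (0.78), Nckap1l (0.78), Wif1 (0.77), Pcsk5 (0.75), Gnb4 (0.75), Plxna4 (0.75), Actn1 (0.75) and Tmem176b (0.74). The gene most like each member was Rabep1 for Pecam1, Nckap1l for Cdh5, Ets1 for Kdr, Acsl4 for Flt1, Serpinb9 for Tek, Adamts7 for Tie1, Snx20 for Vwf, Itga5 for Emcn, Myo1e for Angpt2 and Synpo for Plvap. These correlations lay between 0.73 (Kdr and Vwf) and 0.86 (Cdh5). Nckap1l is known as a gene of blood cells.

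Other genes of the same pathways and cells were examined by list. Among 27 further genes of endothelial identity, 26 were tested and 1, Ets1, a transcription factor of the ETS family, passed over the 9 time points. Ets1 ran from 10.2 to 15.6 TPM at 0 h and from 16.8 to 25.3 TPM at 7 d, with a log2 fold change of 0.87 (SE 0.22, adjusted p = 0.0269) at 7 d and 0.96 (adjusted p = 0.0320) at 21 d. The median log2 fold change of this list at 7 d was 0.32, against -0.01 over all genes. None of 5 arterial genes passed over the time points (edgeR), and their summed TPM overlapped between 0 h (53.9 to 62.4) and 7 d (41.8 to 78.6). Most of this sum was Efnb2 (37.4 to 50.2 TPM at 0 h). Gja5, the lowest of them, ran from 0.23 to 0.76 TPM at 0 h and from 4.96 to 5.52 TPM at 3 d. Gja4, Efnb2, Bmx and Sema3g overlapped between these times.

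Of 8 VEGF ligands and other VEGF receptors, 2 passed over time, the co-receptor Nrp2 and the ligand Vegfa. Nrp2 ran from 28.2 to 31.9 TPM at 0 h and from 47.1 to 101 TPM at 7 d, and rose at 7 d (2.1-fold, log2 SE 0.19, adjusted p = 0.00109), 14 d (2.02-fold) and 21 d (1.84-fold). Vegfa ran from 52.5 to 63.1 TPM at 0 h and from 68.9 to 212 TPM at 3 d, and passed at no single time (2.1-fold at 3 d, adjusted p = 0.126). Of 4 tested partners of the Tie receptors (5 listed), Svep1, a matrix protein, and Angpt1, the other main angiopoietin, passed over time. Svep1 ran from 3.94 to 4.61 TPM at 0 h and from 9.28 to 22.9 TPM at 21 d, and rose at 14 d and 21 d (at 21 d log2 fold change 2.03, SE 0.37, adjusted p = 0.00159). Angpt1 ran from 1.75 to 4.00 TPM at 0 h and from 5.72 to 10.0 TPM at 21 d (log2 fold change 1.61, adjusted p = 0.255).

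Of 12 genes of vessel sprouting and Notch signaling, 7 passed over the 9 time points (Apln, Cxcr4, Aplnr, Dll4, Notch4, Notch1 and Unc5b). Apln, which encodes the peptide apelin made by sprouting tip cells, was 0.42, 0.56 and 0.23 TPM at 0 h, 8.57 to 12.8 TPM at 3 d and 6.53 to 13.5 TPM at 7 d. It rose at 3 d (log2 fold change 4.51, SE 0.74), 7 d (4.61, SE 0.71), 14 d (3.98) and 21 d (3.63), with an adjusted p of 0.000179 at 7 d, although its 0 h libraries held only a few reads each. Cxcr4, a chemokine receptor of tip cells and of many leukocytes, rose at 3 d (log2 fold change 2.54), 7 d (2.37, SE 0.53, adjusted p = 0.0120) and 14 d (2.39). The apelin receptor Aplnr passed at no single time (log2 fold change 1.53 at 14 d, adjusted p = 0.158). Notch1 moved the other way, from 42.7 to 58.9 TPM at 0 h down to 24.3 to 33.7 TPM at 21 d, and also passed at no single time. Its 0 h level lay above that of Pecam1 (31.7 to 40.8 TPM), and the cells that it came from were not tested.

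Adhesion molecules by which inflamed venules capture leukocytes passed at 3 h, when no member did. Of 5 listed genes, Selp, Sele and Icam1 rose at 3 h and at 24 h, and Vcam1 from 7 d to 21 d, while Darc did not pass. Selp was also higher at 6 h, 3 d and 7 d, Sele at 3 d and Icam1 at 7 d. Selp, the P-selectin of endothelial cells and platelets, was 2.27, 2.19 and 3.46 TPM at 0 h and 6.07, 42.9 and 41.5 TPM at 3 h (log2 fold change 3.67, SE 0.65, adjusted p = 0.00848). Sele, the E-selectin of activated endothelium, was 6.17 to 15.5 TPM at 0 h and 17.5 to 67.9 TPM at 3 h (log2 fold change 2.54, SE 0.47, adjusted p = 0.0106). All 3 h libraries belong to the first date set, whose only 0 h library held 15.5 TPM of Sele and 3.46 TPM of Selp. The 3 h replicate 1 held 17.5 TPM of Sele, against 58.8 and 67.9 TPM in replicates 2 and 3. Replicate 3 had the lowest total count of all libraries. These calls were not tested within a date set or with libraries left out. Icam1 (log2 fold change 2.07 at 3 h, adjusted p = 0.00698) and Vcam1 (2.37 at 21 d, adjusted p = 0.00159) are also expressed outside the endothelium. By 21 d, Selp (1.52 to 4.42 TPM) and Sele (5.58 to 9.40 TPM) overlapped their 0 h ranges.

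**Figure D4:**
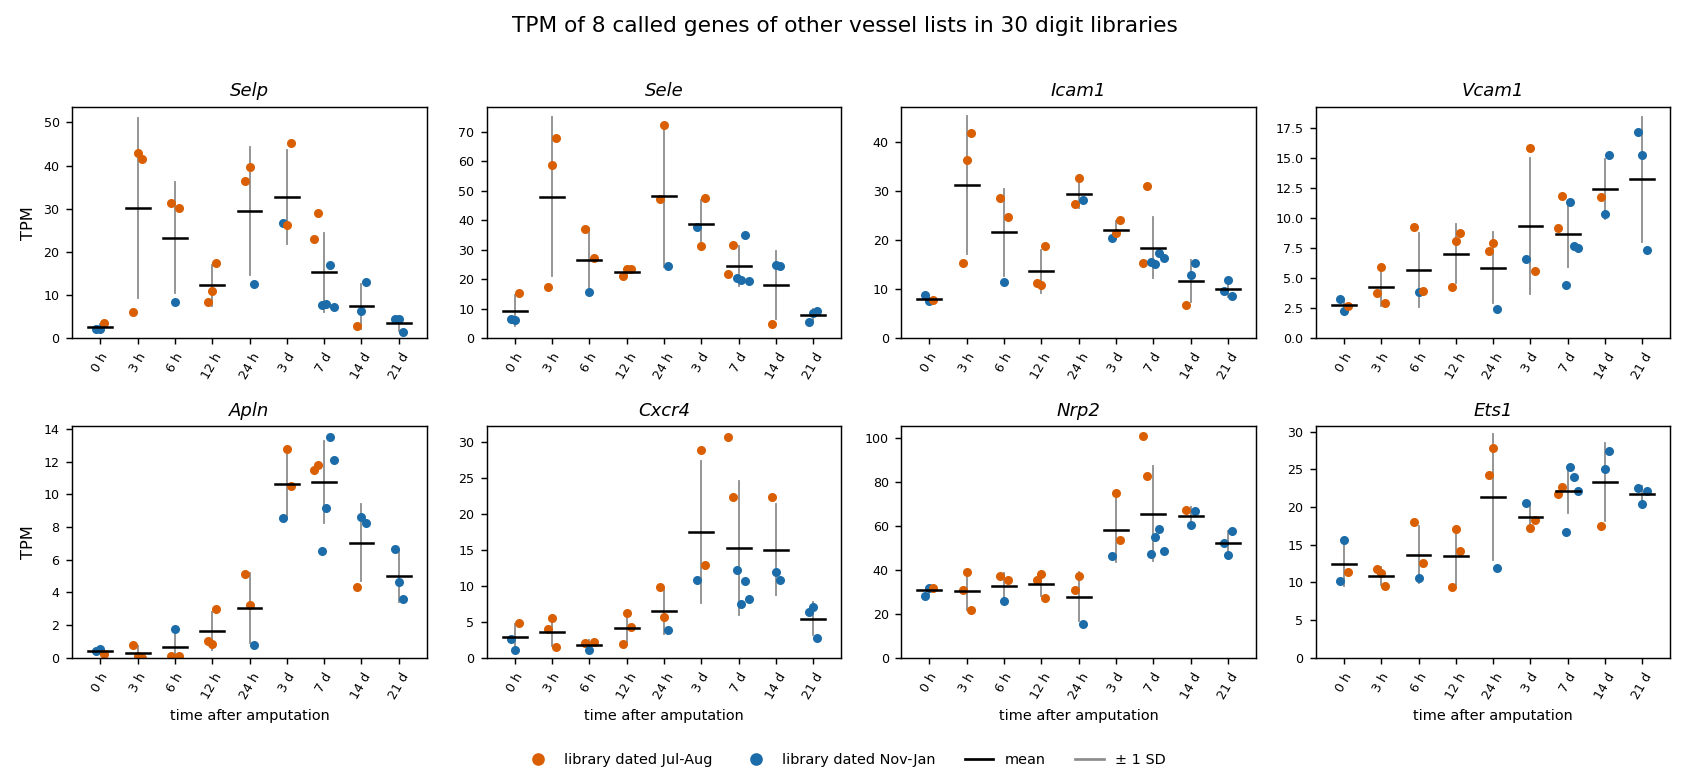
TPM (vertical axis, from 0) of 8 genes from the further vessel lists by time after amputation, with points colored by date set, bars at the mean and grey lines for ± 1 SD. Selp and Sele reach 42.9 and 67.9 TPM at 3 h, Vcam1 is highest at 21 d, and Apln stands at 8.57 to 12.8 TPM at 3 d.

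Markers of other cells in the digit moved over the same times. Of 8 leukocyte markers, 5 passed over the time points (S100a8, S100a9, Cd14, Csf1r and Ptprc), and 4 were higher at 7 d. Their summed TPM was 123 to 170 at 0 h, 282 to 381 at 24 h, 493 to 1070 at 7 d and 118 to 518 at 21 d, and their part in the rise of Cdh5 and Flt1 was not tested. At 7 d this sum was 978 and 1070 in the 2 libraries of the first date set and 493 to 719 in the 4 of the second (each marker but S100a9 was higher in both). That of the bone cell markers was 9703 and 9848 against 5213 to 6546, although Ibsp, Bglap and Sp7 overlapped between these libraries. None of the 4 tested platelet markers of 8 passed over time (edgeR), their summed TPM was 52.6 to 64.5 at 0 h and 25.0 to 87.7 at 7 d, and at 7 d Pf4 (6.55 to 44.2 TPM), Gp1bb (8.83 to 36.6 TPM) and Itga2b (3.87 to 5.27 TPM) were above 0 in every library. Gp9, Gp1ba and Gp6 were at 0 in all 7 d libraries and in nearly all others. The part of platelets in the Vwf values was not tested. Of 10 mural cell markers, Pdgfrb and Abcc9 passed over time and none at any single time, and their summed TPM overlapped between 0 h (536 to 683) and 7 d (390 to 655). Of 6 lymphatic genes only Pdpn passed, which is also found in other stromal and epithelial cells. None of 6 keratinocyte markers passed over time, and their summed TPM was 59126 to 64503 at 0 h and 39385 to 46413 at 24 h. Bone cell markers passed in 7 of 8 cases, with 4 higher at 7 d and 6 at 14 d, and their summed TPM was 1451 to 3110 at 0 h and 14521 to 17109 at 14 d. Among 5 erythroid markers 3 passed (Hba-a2, Hbb-bs and Alas2), with 2 lower at 7 d, and their summed TPM was 219 to 1522 at 0 h and 40.8 to 357 at 7 d.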

How the data were processed

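RNA from 30 mouse digits was sequenced as single-end 65 base reads of poly(A) libraries. After alignment with Bowtie to Ensembl genes, the authors used RSEM 1.2.3 to obtain expected counts per gene. The deposited expected counts are not normalized and were rounded to whole numbers here. The TPM deposited per library are scaled to gene length and to all genes of that library. The deposited averages per time point were not used. Submitters' notes give build mm10 and CASAVA 1.8.2.

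Tests of counts used edgeR 4.0.16 (R 4.3.3) after TMM normalization, with the low count filter of edgeR by time point (13793 of 20321 genes, holding 99.9% of counts), quasi-likelihood tests and Benjamini-Hochberg adjustment over all tested genes at 0.05. The fit held all 30 libraries without covariates. Further tests were a time by date set interaction and contrasts between late times. Alternatives were DESeq2 1.42.0 (size factors and test), no filter, date set as a covariate, no left-foot libraries, only the times compared, limma 3.58.1 on log2(TPM + 1) or log2(TPM + 0.1) for genes with a mean of at least 1 TPM, and each library left out in turn. Fits within a date set were added after seeing the data. The methods were tested on simulated data. Figures were drawn with matplotlib 3.10.9.

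The members and lists were chosen with earlier results of these data known. Named beside the members are, from each list, up to 3 genes with the lowest adjusted p over time and up to 3 called with the largest change, the 10 genes most like the mean of the members, and the gene most like each. Unc5b, Dll4, Notch1, Notch4, Darc and the markers of other cells were named as list members. Coordinates and promoters are from GENCODE and RefSeq for GRCm38. No exon of a member overlapped another annotated gene. No libraries of a time point looked like copies (chi-square per degree of freedom 9.83 to 94.7 over 39 pairs). The 0 h replicate 3 and the 12 h replicate 2 carry the same animal tag and date in their titles, although the study's methods count 30 mice. Whether they share a mouse is not given. The former is the only 0 h library dated July to August. The lowest counts have the largest counting error, and PCR copies are not independent molecules.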

Additional observations from a re-analysis of the deposited data

Results flagged for a closer look

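At 7 d, the time with 6 libraries, single libraries lay far from the others in 2 of the 10 genes examined. For Tie1, the gap between the highest library (25.8 TPM, replicate 2) and the next was 0.826 of the whole range. For Angpt2, the gap between the highest library (11.0 TPM, replicate 1) and the next was 0.694 of the range. Both exceed the 95% critical value of Dixon's test for 6 values, which chance passes in about 1 of 20 groups. Both libraries are dated July to August. The 7 d means were 12.8 TPM for Tie1 and 7.08 TPM for Angpt2, and neither gene passed at 7 d, with all libraries or with any single library left out.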

How the results depend on the processing

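Members called over the 9 time points numbered 5 with the DESeq2 test (Pecam1 and Angpt2 besides Cdh5, Flt1 and Vwf) and 1 (Vwf) with limma on log2(TPM + 1) or log2(TPM + 0.1), and stood between 3 and 4 with each library left out. Date set as a covariate added Pecam1. With only the July to August libraries they were Cdh5 and Flt1. With only the November to January libraries they were Pecam1, Cdh5 and Tie1, and at 24 h Tie1 alone (1 library at that time). At 24 h none was called with only the 2 times compared, with limma on log2(TPM + 1) or with the July to August libraries, and 0 to 1 with a library left out. At 3 d, 1 (Cdh5) was called with the DESeq2 test, without the left-foot libraries or with the July to August libraries, and 0 to 1 with a library left out (1 without the 3 d replicate 1). At 7 d, 1 (Cdh5) was called without the left-foot libraries and with the July to August libraries, 0 with only the 2 times compared, with limma or with the November to January libraries, and 0 to 2 with a library left out (0 without the 0 h replicate 1 or 3, 1 without replicate 2). The July to August fit has 1 library at 0 h, which is assumed to vary like the other groups. At 14 d and at 21 d, 1 (Cdh5) was called with date set as a covariate and with only the 2 times compared. The interaction called 1 member (Plvap) without the left-foot libraries, with 6 of 12 combinations of time and date set at 1 library. DESeq2 size factors and no filter on low counts changed no call of a member. The log2 fold changes of Flt1 at 24 h (0.62 to 1.28) and 7 d (0.73 to 1.09) and of Cdh5 at 7 d (0.98 to 2.36) kept their sign in all alternatives run. Calls made by the DESeq2 test numbered 2496 genes over time and 161 at 3 d, against 1243 and 76 in edgeR. The cause of these shifts was not tested. For the other alternatives the share of all genes called is not given here, so their member calls cannot be set against it. The replicate numbers of most groups follow accession order and pair no mice. No paired analysis was possible because each library is, by the labels, a mouse of its own. Depth limits the lowest genes most, with 12 to 16 counts in the poorest library for Tek, Angpt2 and Tie1.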
